A study of Homo with 4 samples.

Results

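The MRTF, SRF and actin target genes comprised 10 of the 20263 genes in the deposited count table: MRTFB and MRTFA, their DNA-binding partner SRF, and the targets CCN1, CCN2, TAGLN, CNN1, VCL, ACTB and MYL9. The 10 genes were matched to Ensembl identifiers by their GRCh38 positions. MRTFB was selected on its measured values in these same libraries, because it was much lower in shIGF2BP3, so its change is given as a description without a test. The question put to the data was which MRTFB transcripts carried the low value, and whether genes driven by SRF were also lower.

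RNA-seq was performed on H1299, a human line of non-small cell lung cancer in long use. All cells had been infected with lentivirus. The shCtrl group (n = 2) carried a control short hairpin and is labelled WT, and the shIGF2BP3 group (n = 2) carried a hairpin against IGF2BP3, an RNA-binding protein that attaches to many mRNAs, and is labelled as a knockdown. Both groups grew in RPMI medium with fetal bovine serum, and the time between infection and harvest is not given. The labels call the 2 libraries of each group biological replicates, but the deposited columns number the shIGF2BP3 libraries differently, and whether these numbers stand for cultures or for different hairpins is not stated. The SD in shIGF2BP3 may therefore include a difference between hairpins.

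SRF is a transcription factor that binds CArG boxes in the promoters of cytoskeletal and growth-factor-responsive genes. It works with 2 families of cofactors. The myocardin-related transcription factors MRTFA and MRTFB are held in the cytoplasm by monomeric actin, and they enter the nucleus when actin is drawn into filaments. The ternary complex factors ELK1, ELK3 and ELK4 bind SRF instead under the control of MAP kinases. Actin itself is among the MRTF-SRF targets, together with contractile proteins, focal adhesion proteins and secreted matrix-associated proteins. CCN1 and CCN2 are also targets of YAP, TAZ and TEAD, so they do not report on SRF alone. Serum is a classical stimulus of SRF, and the libraries come from cells in serum at a single state of the culture.

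Total counts ran from 29709686 to 34817513 per library, and mitochondrially encoded genes took 9.11% to 17.02% of them, with the highest share in shIGF2BP3 replicate 2. Within a group, the 2 libraries were further apart than sampling noise allows, and the common biological coefficient of variation was 22.8% for genes. Epithelial keratins KRT8 and KRT18 were expressed, with a summed epithelial marker level of 1792 to 2189 normalized counts (CPM, counts scaled to library size with TMM factors), while KRT19, EPCAM and CDH1 stayed under 1 CPM in every library although the label reads epithelial. Of the fibroblast markers 6 of 7 were under 1 CPM with LUM at 0, and the summed level was 0.851 to 1.83 CPM. Among smooth muscle markers 3 of 5 were under 1 CPM with LMOD1 at 0 (45.3 to 62.5 CPM summed, mostly SMTN, which is itself an SRF target). Among endothelial and leukocyte markers 5 of 6 were under 1 CPM, with PTPRC and CD3E at 0 and a sum of 44.7 to 50.04 CPM that was nearly all CD68. The targeted gene IGF2BP3 (ENSG00000136231, chromosome 7, 23310209 to 23470467) measured 41.1 and 32.9 CPM in shCtrl against 26.4 and 24.8 CPM in shIGF2BP3. Both knockdown libraries lay below both controls, with a log2 fold change of -0.53 ± 0.17 (SE) in edgeR's quasi-likelihood test (adjusted p = 0.472), a fold change of 1.45. This falls short of the thresholds of the study, which ask for a 1.5-fold change and an unadjusted p no larger than 0.05 and serve as the call throughout. In bulk RNA, fewer expressing cells and less RNA per cell cannot be told apart.

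MRTFB (ENSG00000186260) lies on the plus strand of chromosome 16, from 14071321 to 14266772 in GRCh38 as deposited. The 2 shCtrl libraries held 414 and 275 estimated counts of it, and the 2 shIGF2BP3 libraries 30 and 16. In normalized terms these were 11.0 and 8.12 CPM against 0.869 and 0.581 CPM. The groups were far apart, with a gap between them much wider than the spread inside either one, which is the property it was selected on. The fitted log2 fold change was -3.70, or 13.0-fold lower, and 9 of the 13379 genes tested had a lower fitted value. The size of the difference depended on the scale. From mean CPM it was 13.2-fold, but from mean FPKM, which divides each transcript's count by its length, it was 6.95-fold (0.982 against 0.141 FPKM).

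Of the 8 MRTFB transcripts listed, 4 had any count and only ENST00000571589, which spans the deposited gene, was abundant enough to be tested. It held 412, 275, 30 and 9 counts in shCtrl 1, shCtrl 2, shIGF2BP3 1 and shIGF2BP3 2. That was 99.5% of the gene's counts in shCtrl replicate 1 (95% exact binomial interval 98.3% to 99.9%) and 100% in shCtrl replicate 2 (98.7% to 100%). It was also 100% in shIGF2BP3 replicate 1 (88.4% to 100%). In shIGF2BP3 replicate 2 it made up 56.3% (29.9% to 80.2%), on 16 counts in all. The intervals cover counting error only. The remaining counts were 2 for ENST00000573434 in shCtrl replicate 1, and, in shIGF2BP3 replicate 2, 3 for ENST00000572567 and 4 for ENST00000571770. These models cover parts of the gene, and ENST00000571770 alone contributed 0.137 of the 0.198 FPKM of the gene in that library. The loss was thus borne by a single transcript model, which was 15.8-fold lower by mean CPM and 16.9-fold lower by mean FPKM (0.952 against 0.0563), and the smaller gene-level FPKM fold rests on the 7 counts of these partial models. The RefSeq gene begins 76547 bp upstream of the first deposited transcript, so reads from that stretch are not in these values.

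No tested gene around MRTFB had a fold change as low. Within 1 Mb of MRTFB on either side, 10 genes were tested, with log2 fold changes from -0.07 to 0.84 and a median of 0.31. Past the thresholds 0 of them were lower, beside 2.78% of all genes, and this count is near the background. The 2 that were higher past the thresholds (beside 2.54% of all genes) were NPIPA1 and NPIPA3. They belong to a near-identical multigene family whose reads are hard to assign.

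**Figure D1:**
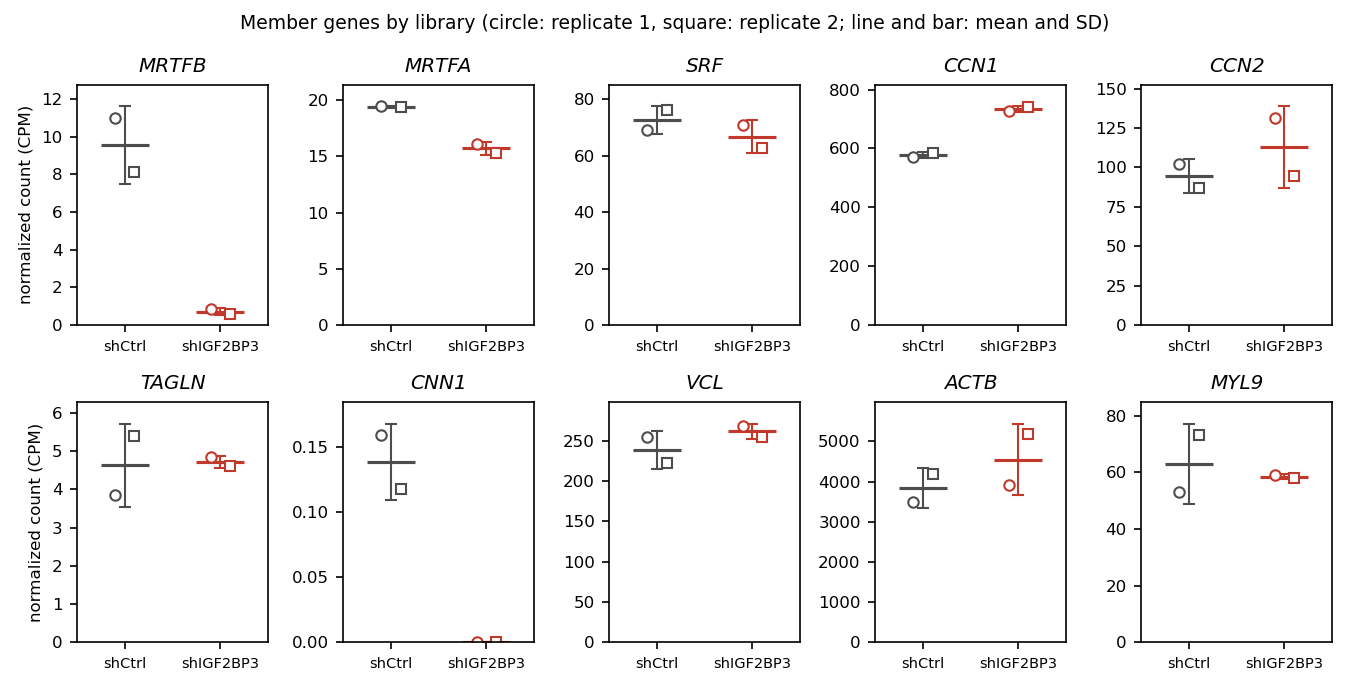
Normalized counts (CPM, each axis from 0) of the 10 genes in the 2 shCtrl libraries (grey) and the 2 shIGF2BP3 libraries (red), with the mean and SD of each group. MRTFB fell from 8.12 to 11.0 CPM to under 1 CPM, whereas the points of SRF, CCN2, TAGLN, ACTB and MYL9 overlap between groups.

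MRTFA, the other broadly expressed member of the family, was the more abundant of the pair in every library. MRTFA (ENSG00000196588, chromosome 22, 40410281 to 40636691) measured 19.4 and 19.4 CPM in shCtrl and 16.1 and 15.3 CPM in shIGF2BP3. Both knockdown libraries lay below both controls, as they did for 23.5% of all genes tested. The log2 fold change of -0.31 ± 0.16 (95% interval -0.70 to 0.09) did not pass the thresholds (edgeR adjusted p = 0.517). On the FPKM scale MRTFB made up 21.9% and 15.4% of the summed MRTFA and MRTFB level in shCtrl, and 2.28% and 6.06% in shIGF2BP3. The 6.06% in shIGF2BP3 replicate 2 rests mostly on the partial model ENST00000571770, which gave 0.137 of the gene's 0.198 FPKM there on 4 counts. By CPM, MRTFB was lower in that library (0.581) than in shIGF2BP3 replicate 1 (0.869). The sum itself was 5.48 and 4.95 FPKM in shCtrl and 3.70 and 3.27 FPKM in shIGF2BP3, with MRTFA making up most of it in all 4 libraries.

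The MRTFA transcripts could not be read as simply as those of MRTFB. ENST00000355630 was estimated at 486, 2, 51 and 0 counts in shCtrl 1, shCtrl 2, shIGF2BP3 1 and shIGF2BP3 2, and ENST00000407029 at 68, 484, 496 and 398 counts in the same order. The leading transcript thus differed between the 2 control libraries, while the gene's total there was almost the same. Of 5 MRTFA transcripts tested, 1 was lower past the thresholds, where 3.79% of all 37927 transcripts tested were lower and 2.5% higher. This was ENST00000396617, with 60 and 51 counts in shCtrl and 0 and 1 in shIGF2BP3 (edgeR adjusted p = 0.466). It lost its call when either control library was left out (unadjusted p = 0.0570 and 0.0537, edgeR). A switch of the leading transcript inside a group was common: it was seen in 19.7% of 9366 genes with several transcripts and at least 100 counts per library in shCtrl, and in 20.3% in shIGF2BP3. MRTFA also overlaps a gene on the other strand, and the strand setting of the counting is not given, so part of its reads may belong to that gene.

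**Figure D2:**
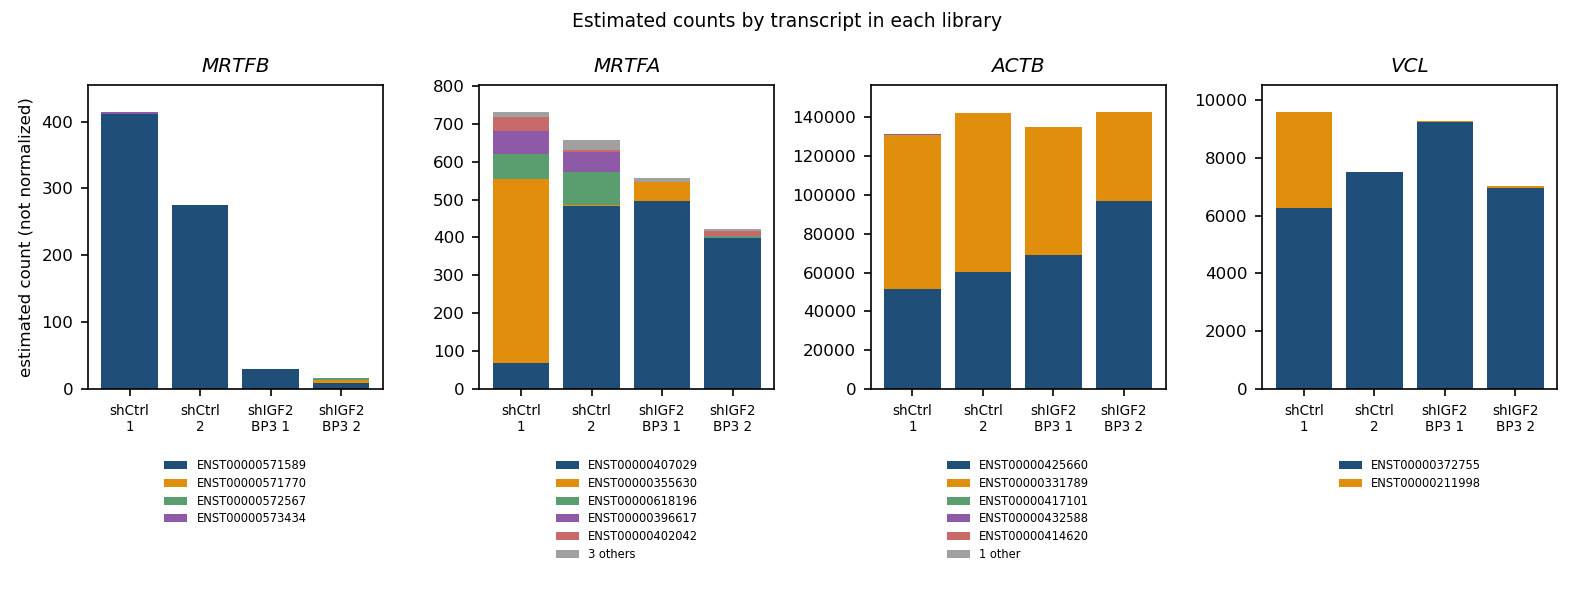
Estimated counts (not normalized, axis from 0) stacked by transcript for MRTFB, MRTFA, ACTB and VCL in each library. MRTFB is nearly all ENST00000571589 in 3 of 4 libraries, whereas for MRTFA and VCL the shares differ between the shCtrl libraries and for ACTB the larger share moves from ENST00000331789 to ENST00000425660.

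SRF (ENSG00000112658, chromosome 6, 43171299 to 43181507) has 1 transcript in the table and was measured well. It stood at 69.2 and 76.0 CPM in shCtrl and 70.9 and 62.6 CPM in shIGF2BP3, and the groups overlapped. The log2 fold change was -0.12 ± 0.14 (95% interval -0.47 to 0.23, edgeR adjusted p = 0.748), so a decrease of SRF to a log2 value below -0.47 lies outside the interval. SRF is itself an SRF target.

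Among the ternary complex factors, ELK3, which represses SRF targets until it is phosphorylated, fell. ELK3 (ENSG00000111145, chromosome 12, 96194382 to 96269835) measured 96.2 and 71.0 CPM in shCtrl against 28.5 and 19.6 CPM in shIGF2BP3. This was 3.47-fold lower (log2 fold change -1.80 ± 0.25), with an adjusted p of 0.188 in edgeR and a range of 4.08e-08 to 0.545 over the alternative settings. The main transcript ENST00000228741 held 3560, 2339, 924 and 519 counts in the library order used above, nearly all of the gene. It was lower as well (log2 fold change -1.83 ± 0.32, edgeR adjusted p = 0.440 over transcripts). ELK1 (48.3, 54.0, 43.4 and 42.5 CPM) and ELK4 (19.6, 19.2, 22.2 and 2.98 CPM) did not pass the thresholds, and the ELK4 value rests on shIGF2BP3 replicate 2. SCAI, a nuclear inhibitor of MRTF, ranged from 1.80 to 5.88 CPM in shCtrl and from 6.95 to 7.04 CPM in shIGF2BP3 (edgeR adjusted p = 0.561). On the FPKM scale the direction was opposite, with 1.06 and 0.882 in shCtrl against 0.712 and 0.897 in shIGF2BP3 (means 0.971 and 0.804). SCAI also overlaps a gene on the same strand, so no direction is read from it. MYOCD, the muscle-restricted founder of the family, was at 0 in every library. Of the 8 genes listed as SRF and its cofactors, 7 were tested and 2 were lower past the thresholds (28.6%), MRTFB and ELK3. MRTFB was selected for its low value, so this share is not read against the 2.78% of all genes. Apart from MRTFB, only ELK3 was lower past the thresholds.

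Of the members, 7 are MRTF-SRF targets that could be tested, SRF among them, and 0 were lower past the thresholds. With 2.78% of all genes lower, this count is near the background. The log2 fold changes of these targets ran from -0.12 to 0.35. The 8 tested genes other than MRTFB add the cofactor MRTFA to these. Of the 8, 0 passed the thresholds in either direction, against a background of 2.78% lower and 2.54% higher among all genes. At an adjusted p under 0.05 edgeR called 0 of all genes tested (0%), with 1411 genes at or under 0.05 before adjustment and 160 genes at the adjusted threshold with DESeq2. Both knockdown libraries were below both controls for 1 of the 8, MRTFA, and above both for 2, CCN1 and VCL, where 23.5% and 23.3% of all genes lay apart in these directions. The median log2 fold change of the 8 was 0.08, beside -0.0019 over all genes.

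ACTB, beta-actin, is the cytoskeletal protein whose monomer controls MRTF, and it was the most abundant of the 10. ACTB (ENSG00000075624, chromosome 7, 5527151 to 5563784) measured 3492 and 4200 CPM in shCtrl and 3918 and 5180 CPM in shIGF2BP3. The groups overlapped, and the log2 fold change was 0.24 ± 0.20 (95% interval -0.26 to 0.75, edgeR adjusted p = 0.657). The fold changes of its main transcripts had opposite signs. ENST00000331789 held 79664 and 81732 counts in shCtrl and 65998 and 45865 in shIGF2BP3 (log2 fold change -0.32 ± 0.12, edgeR adjusted p = 0.788), and ENST00000425660 held 51315 and 60341 against 69032 and 96691 (log2 fold change 0.83 ± 0.34, edgeR adjusted p = 0.823). The first led in both control libraries and the second in both knockdown libraries, but neither passed the thresholds. Without shIGF2BP3 replicate 1 the second did, at a log2 fold change of 1.20. Beta-actin shares near-identical coding sequence with ACTG1 and has many processed pseudogenes, so the division of its reads is uncertain.

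The contractile members MYL9 and TAGLN overlapped between groups, and CNN1 was close to absent. MYL9, the regulatory light chain of myosin (ENSG00000101335, chromosome 20, 36541484 to 36551447), measured 52.9 and 73.0 CPM in shCtrl and 59.1 and 57.8 CPM in shIGF2BP3. Both knockdown values lay between the controls. The log2 fold change of -0.11 ± 0.19 (95% interval -0.58 to 0.36, edgeR adjusted p = 0.836) turned to 0.14 without shCtrl replicate 2. TAGLN, an actin cross-linking protein of smooth muscle and an established MRTF reporter gene (ENSG00000149591, chromosome 11, 117199321 to 117204782), was low at 3.86 and 5.40 CPM in shCtrl and 4.84 and 4.61 CPM in shIGF2BP3. Again the knockdown values lay between the controls. Its log2 fold change of 0.03 ± 0.25 (95% interval -0.60 to 0.66, edgeR adjusted p = 0.972) changed sign with library totals in place of TMM, without shCtrl replicate 1, and on the FPKM scale, where the values were 2.67, 3.80, 2.38 and 1.92.

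The TAGLN counts were spread over transcripts differently in each library. ENST00000392951 had 51, 114, 19 and 0 counts, and ENST00000532870, which spans less of the locus, had 54, 68, 118 and 89. TAGLN overlaps a gene on the other strand. CNN1, calponin, a smooth muscle protein that binds actin (ENSG00000130176, chromosome 19, 11538717 to 11550323), had 6 and 4 counts in shCtrl and 0 and 0 in shIGF2BP3. It was removed by the filter on low counts and not tested. A count of 0 allows up to 3 counts, or 0.0869 and 0.109 CPM in the 2 knockdown libraries. The controls stood above these limits, at 0.160 and 0.118 CPM. Those values rest on only 6 and 4 counts, with counting error of their own, so no direction is read from this gene.

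VCL, vinculin, which links integrin adhesions to actin (ENSG00000035403, chromosome 10, 73998114 to 74121363), measured 255 and 222 CPM in shCtrl and 268 and 255 CPM in shIGF2BP3. The knockdown libraries were only just above the controls, 255.09 against 254.94 CPM at the nearest. The log2 fold change was 0.13 ± 0.14 (95% interval -0.21 to 0.48, edgeR adjusted p = 0.716). ENST00000372755 held nearly all counts except in shCtrl replicate 1, where ENST00000211998 was given 3327 counts against 4, 10 and 58 in the other libraries. VCL also overlaps a gene on the other strand.

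CCN1 and CCN2, secreted matricellular proteins that bind integrins, had positive fold changes. CCN1 (ENSG00000142871, chromosome 1, 85580761 to 85583962) measured 569 and 586 CPM in shCtrl and 728 and 740 CPM in shIGF2BP3, with narrow groups that did not overlap. The log2 fold change was 0.35 ± 0.13 (95% interval 0.03 to 0.66, edgeR adjusted p = 0.472), and its fold change of 1.27 was under 1.5. CCN2 (ENSG00000118523, chromosome 6, 131948176 to 131951373) measured 102 and 86.7 CPM in shCtrl and 131 and 94.6 CPM in shIGF2BP3, with overlap. The log2 fold change was 0.26 ± 0.20 (95% interval -0.25 to 0.76, edgeR adjusted p = 0.635). Each has a single transcript in the table, so neither value depends on how reads were divided among transcripts.

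**Figure D3:**
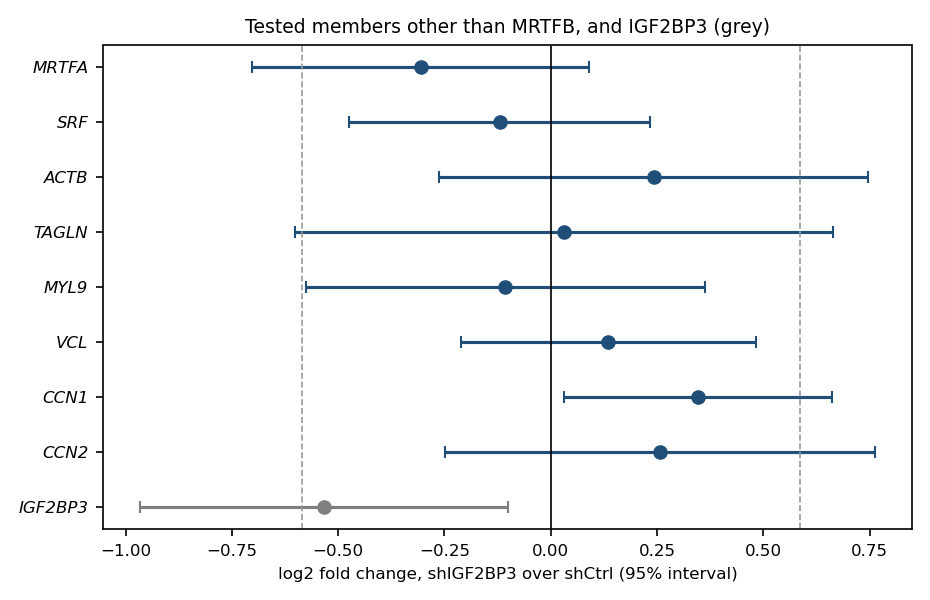
Log2 fold change of shIGF2BP3 over shCtrl with its 95% interval for the 8 tested genes other than MRTFB, and for IGF2BP3 in grey, with dashed lines at a fold change of 1.5. The intervals of all 8 except CCN1 include 0, and no point of the 8 lies beyond a dashed line.

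Compared per length, the order in shCtrl by mean FPKM was ACTB (1780), CCN1 (220), CCN2 (35.3), VCL (33.3), MYL9 (23.1), SRF (15.01), MRTFA (4.23), TAGLN (3.24), MRTFB (0.982) and CNN1 (0.0656). Only the neighbours CCN2 and VCL overlapped between the control libraries. MRTFB was therefore one of the least expressed of the group before the knockdown, and the smooth muscle proteins TAGLN and CNN1 stood far below the actin, adhesion and matricellular genes.

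The wider MRTF-SRF targets were read from 3 lists holding 46 genes, 8 of them among the 10 genes, and 40 were tested. Of these, 2 were lower past the thresholds (5%, beside 2.78% of all genes) and 0 were higher (beside 2.54%). At an adjusted p under 0.05 there were 0 of the 40 in edgeR. Before adjustment 8 of the 40 were at or under 0.05, beside 1411 of the 13379 genes tested. Of these 8, CCN1 and ANKRD1 had positive log2 fold changes and the others negative ones. Both knockdown libraries were below both controls for 15 of the 40 (37.5%, beside 23.5% of all genes) and above both for 8 (20%, beside 23.3%). The median log2 fold change was -0.08, beside -0.0019 over all genes. The 6 targets that could not be tested were ACTA1, ACTC1, ACTG2, CNN1, MYH11 and LMOD1, all genes of muscle.

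**Figure D4:**
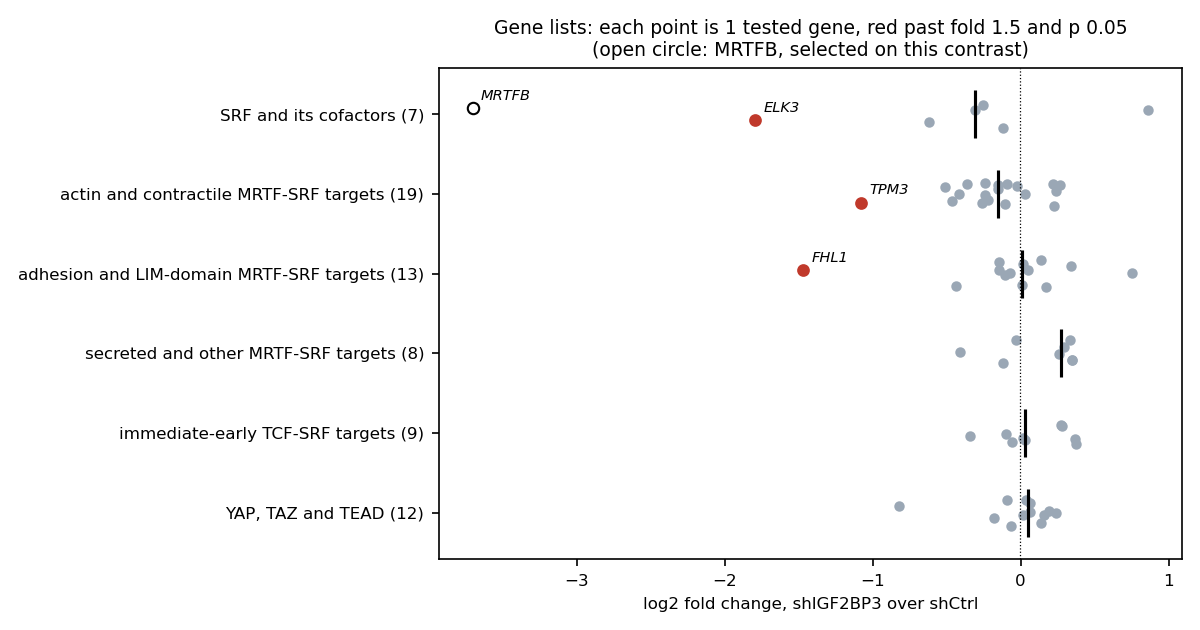
Log2 fold changes of the tested genes in 6 lists (number tested in brackets), with the list median as a black bar and the median of all genes as a dotted line. Red points pass the thresholds, and apart from MRTFB, shown open, they are ELK3, TPM3 and FHL1.

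Of 19 actin and contractile targets tested, 14 had a negative log2 fold change and the median was -0.15. For 10 of them (52.6%, beside 23.5% of all genes) both knockdown libraries were below both controls, and 1 was lower past the thresholds (5.26%, beside 2.78% of all genes). TPM3, a tropomyosin that coats actin filaments (ENSG00000143549, chromosome 1, 154155304 to 154194648), fell 2.11-fold, from 323 and 276 CPM to 129 and 154 CPM (log2 fold change -1.08 ± 0.16, edgeR adjusted p = 0.241, 3.07e-06 to 0.457 over the alternatives). ACTG1, gamma-actin, measured 1129 and 1260 CPM in shCtrl and 916 and 818 CPM in shIGF2BP3, with no overlap and a log2 fold change of -0.46 ± 0.14 that was under the fold threshold (edgeR adjusted p = 0.472). The sign was opposite to that of ACTB, its near-identical relative. CNN2 and TAGLN2, the non-muscle relatives of CNN1 and TAGLN, had log2 fold changes of -0.51 and -0.42 and did not reach the fold threshold either. They are named here after their values were seen, as the remaining genes of the list whose unadjusted p was no larger than 0.05. TPM2, another tropomyosin, measured 438 and 560 CPM against 541 and 658 CPM (log2 fold change 0.27 ± 0.18, edgeR adjusted p = 0.595).

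The TPM3 decrease was uneven across its 12 tested transcripts, of which 2 were lower and 1 was higher past the thresholds. Of all 37927 transcripts tested, 3.79% were lower and 2.5% higher. The common biological coefficient of variation was 85.0% for transcripts, so single transcript values are imprecise. ENST00000328159 held 6806 and 6022 counts in shCtrl and 396 and 552 in shIGF2BP3 (log2 fold change -3.49 ± 0.37, edgeR adjusted p = 0.419). ENST00000368533 went the other way, with 170 and 126 counts against 800 and 407 (log2 fold change 2.22 ± 0.40, edgeR adjusted p = 0.443). The leading transcript was ENST00000328159 in both controls, ENST00000341372 in shIGF2BP3 replicate 1 and ENST00000341485 in shIGF2BP3 replicate 2. The knockdown libraries thus shared the low ENST00000328159 but not the transcript that led in its place: ENST00000341372 had 2689 and 0 counts in them, and ENST00000341485 had 205 and 3005.

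In the adhesion and LIM-domain list, 13 of 13 were tested, the median was 0.01, and 1 was lower past the thresholds (7.69%, beside 2.78% of all genes). FHL1, a LIM-only protein that binds the cytoskeleton and transcription factors (ENSG00000022267, chromosome X, 136146702 to 136211359), fell 2.77-fold, from 19.9 and 30.5 CPM to 8.84 and 9.37 CPM (log2 fold change -1.47 ± 0.25, edgeR adjusted p = 0.319, 0.000163 to 0.426 over the alternatives). Its control counts were placed on different models, 441 on ENST00000535737 in shCtrl replicate 1 and 859 on ENST00000543669 in shCtrl replicate 2. Of its 7 tested transcripts 0 passed, beside 3.79% of all transcripts lower and 2.5% higher. Among these 7, 3 carried the same counts in each library (24, 15, 29 and 25) and so are not separate results. Whether those reads were divided or counted more than once is not given. The most abundant genes of the list did not pass. ITGB1, the common beta chain of matrix-binding integrins, measured 703, 622, 670 and 669 CPM (log2 fold change 0.02 ± 0.14, with the sign turning under library totals, on FPKM and without shCtrl replicate 2). PXN, the adhesion scaffold paxillin, measured 305, 289, 332 and 420 CPM (0.34 ± 0.16). PDLIM7, a PDZ and LIM protein on actin filaments, measured 140, 182, 140 and 159 CPM (-0.11 ± 0.18, and 0.09 without shCtrl replicate 2).

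Of the secreted and other targets 8 of 8 were tested and 0 passed the thresholds (beside 2.78% of all genes lower and 2.54% higher), with a median log2 fold change of 0.28. CCN1 and CCN2 are also targets of YAP, TAZ and TEAD, so this median does not report on SRF alone. CCN1, CCN2, ANKRD1, AMOTL2 and TUFT1 had positive log2 fold changes of 0.26 to 0.35. ANKRD1, a nuclear ankyrin-repeat protein, measured 38.5 and 38.1 CPM in shCtrl and 47.1 and 49.4 CPM in shIGF2BP3 (0.33 ± 0.13, edgeR adjusted p = 0.472). THBS1, the matrix protein thrombospondin, measured 240 and 174 CPM against 240 and 166 CPM (-0.03 ± 0.25), with a wide spread inside each group and a sign that turned when shCtrl replicate 1 or shIGF2BP3 replicate 2 was left out. MICAL2, an enzyme that oxidizes nuclear actin, had 45.4 and 42.1 CPM against 31.6 and 34.4 CPM (-0.41 ± 0.14, edgeR adjusted p = 0.472), below 1.5-fold. ANKRD1, AMOTL2, TUFT1 and MICAL2 were named after their values were seen.

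Of 9 tested immediate-early genes driven by ternary complex factors and SRF, such as EGR1 (16.8, 15.8, 15.7 and 17.4 CPM) and FOS (3.14, 2.39, 2.96 and 3.74 CPM), 0 passed the thresholds and the median log2 fold change was 0.03. The list of YAP, TAZ and TEAD genes holds the factors themselves but not their targets CCN1 and CCN2. Of its 12 genes tested, 0 passed, with a median of 0.05. With 2.78% of all genes lower and 2.54% higher, these counts of 0 in short lists are near the background and nothing is read from them.

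Across the 4 libraries, the genes whose centred log2 CPM lay closest to that of MRTFB by Euclidean distance were SULT1A1 (0.777), NBPF15 (1.08) and CEMP1 (1.12). SULT1A1 had 16 and 17 counts in shCtrl and 0 and 0 in shIGF2BP3, and CEMP1 had 11 and 14 against 0 and 0, so both rest on few reads. NBPF15 had 19.8 and 14.8 CPM in shCtrl and 4.00 and 1.89 CPM in shIGF2BP3. SULT1A1 and NBPF15 belong to families of near-identical copies, so their reads are uncertain.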

How the data were processed

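RNA-seq libraries of H1299 cells (2 shCtrl, 2 shIGF2BP3) were grouped by their labels. The deposited values were, for each transcript and library, an estimated count given as a whole number with no normalization, and an FPKM. Per the labels, the processing notes name CASAVA, Trimmomatic, HISAT2, bedtools, FastQC and GRCh38, while the counter, the annotation and the strand setting are not given in the sources used here. The 95139 transcripts were added up to 20263 genes, and symbols came from reciprocal best position overlap with RefSeq genes of GRCh38.p14. The gene test was the quasi-likelihood test of edgeR 4.0.16 under R 4.3.3 (TMM, filterByExpr, glmQLFTest, Benjamini-Hochberg adjustment), and transcripts were treated likewise (common biological coefficient of variation 85.0%). With 2 libraries per group, precision was set by replicate spread more than by depth. Other settings tried were library totals with and without mitochondrial genes, RLE factors, DESeq2 1.42.0, other filters on low counts, the replicate number as a block, limma 3.58.1 on log2(FPKM + 1) or log2(FPKM + 0.1) for genes with FPKM of at least 1 in 2 libraries or without that filter, and each library left out.

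The members and lists were chosen with earlier results of these data known, and the lists were written by hand. Genes were named by rule: the members, IGF2BP3, list genes past the thresholds, the 3 genes of highest mean FPKM in each target list, and the 3 genes closest to MRTFB. Others are marked where they appear, except the members of the cofactor list, the untested targets and the examples of the immediate-early list, which were also chosen after their values were seen. Same-numbered libraries did not deviate together (correlation 0.0218), so samples were not paired. The fit was also run on simulated counts, whose means and common dispersion came from the fit to these data. The outcome of that run is not reported here. No sequences were used here, and 1 further gene list, with the gene of it that passed the thresholds, is not reported here.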

Additional observations from a re-analysis of the deposited data

How the results depend on the processing

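Limits: with 2 libraries per group, calls depended strongly on single libraries and on the tool, and the deposited estimates divide reads among transcripts in ways that differ between replicates. At an adjusted p under 0.05 edgeR gave 0 genes, DESeq2 160, the fit with no low-count filter 17, limma on log2(FPKM + 1) 8 and on log2(FPKM + 0.1) 9, and 0 to 84 when a library was left out, with 84 without shIGF2BP3 replicate 1. Lower genes were 372, and 322 to 872 with a library left out. Higher genes were 340, and 213 to 680 with a library left out, the extremes falling without shIGF2BP3 replicate 2 and replicate 1. They were 195 with library totals, 127 and 175 in the filtered limma fits with pseudocounts 1 and 0.1, and 106 in the limma fit with no filter. Higher genes were 47.8% of the calls, but 28.7% with library totals, 27.3%, 27.8% and 28.9% in these 3 limma fits, and 39.6% with totals without mitochondrial genes.

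The MRTF-SRF targets gave 2 to 3 lower genes over all 14 alternatives. They gave 0 higher genes, or 1 without either shCtrl library. Their median of -0.08 moved to -0.16 with library totals and to -0.14 and -0.15 in the filtered limma fits, where the median of all genes was -0.08, -0.07 and -0.08. It ran from -0.15 to -0.045 with a library left out, -0.15 being without shCtrl replicate 1. Since MRTFB is under an FPKM of 1 in all but 1 library, it has no value in the filtered limma fits, and the pseudocount of 1 without the filter gave -0.79. In the other fits its log2 fold change was -4.02 to -3.46. IGF2BP3 passed the thresholds with library totals, in the limma fits and without shCtrl replicate 2 (log2 fold change -0.60 to -0.68).

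Signs turned for genes near 0. TAGLN was -0.034 with library totals, -0.42 on log2(FPKM + 1) with or without the filter and -0.56 on log2(FPKM + 0.1), and it ran from -0.19 to 0.29 with a library left out. ITGB1 was -0.068 with library totals, -0.017 with totals without mitochondrial genes, -0.057 on log2(FPKM + 1) with or without the filter and -0.058 on log2(FPKM + 0.1), and ran from -0.070 to 0.11. THBS1 ran from -0.31 to 0.22 (0.21 without shIGF2BP3 replicate 2), MYL9 from -0.32 to 0.14 and PDLIM7 from -0.28 to 0.093. The cause was not tested. With the replicate block the counts were 418 lower and 354 higher genes and 2 lower targets, the target median was -0.08 and MRTFB was at -3.72, and no named gene changed its call.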
